A study of Canis lupus familiaris with 11 samples.

Results

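Lateral compression of an epithelial sheet made without lamin A, a protein of the nuclear lamina, was examined in MDCKII, an epithelial line from dog kidney. The members are the 5 LMNA knockout (KO) libraries of 11 libraries in the series, chosen by genotype in their labels and not by any measured value. They comprised 3 libraries of laterally compressed KO cells, called KO compressed 1 to 3, and 2 libraries of uncompressed KO cells, called KO control 1 and 2. Before collection the cells of both groups had formed a confluent monolayer over 3 to 4 d, and the compressed ones were given 2 h to recover. The remaining 6 libraries were wild-type (WT) cells, 3 compressed with the same recovery and 3 controls, and served to set the spread and to compare the genotypes. For the controls neither mock handling nor a waiting time is named, so handling, waiting and compression cannot be told apart. The sources used here do not state whether the KO line is 1 clone, how compression was applied, or whether replicates were separate cultures. The p-values therefore measure the spread between these libraries, which may be technical.

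LMNA encodes lamin A and lamin C, filament proteins under the inner nuclear membrane that stiffen the nucleus and link it, through the LINC complex, to the cytoskeleton. In crowded or deformed epithelia, growth factor signalling through ERK, the YAP and TAZ coactivators and stretch-activated channels are known to respond to mechanical load. ERK activity induces immediate early transcription factors such as FOS and EGR1 and, with them, its own brakes of the Sprouty and dual-specificity phosphatase families. The question was which transcripts differed after compression when lamin A is missing, and how far the answer rests on KO compressed 2, a library that stands apart.

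LMNA (chr7:41699201-41719658 on the minus strand, CanFam3.1) was at 35.5, 25.5 and 43.6 CPM in KO compressed 1 to 3, against 38.5 and 51.8 CPM in KO control 1 and 2. CPM are read counts scaled to library size, with TMM factors, here and below. These levels averaged 4.32% of WT compressed and 4.8% of WT control cells, with adjusted p = 1.19e-06 and 1.57e-05 in edgeR. Reads from LMNA therefore remained at a low level in all KO libraries. The compressed and control KO libraries overlapped (log2 fold change -0.37 ± 0.25 (SE), adjusted p = 0.773).

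The 5 KO libraries held 11867396 to 17999623 counts, within the 10420214 to 17999623 of the series, and the 3 compressed libraries were all shallower than the 2 controls. Of 17 epithelial markers, 16 had reads, and KRT7 had none. Their summed level ran from 10600 to 13300 CPM in compressed and from 11200 to 11700 CPM in control KO libraries. In bulk RNA, fewer cells of a type and less RNA per cell cannot be told apart. Markers of other cell types were low. Fibroblast and smooth muscle markers summed to 23.9 to 27.1 CPM in compressed against 30.5 to 30.6 CPM in control libraries, with DCN, LUM, POSTN, FAP and CNN1 at 0. Endothelial markers summed to 99.5 to 133 CPM in compressed against 102 to 119 CPM in control libraries, most of it FLT1, with KDR, TEK, TIE1, ERG and PLVAP at 0. Immune markers summed to 5.45 to 6.23 CPM in compressed against 4.3 to 5.0 CPM in control libraries, with PTPRC, CD3E, CD3D, CD8A, MS4A1, NKG7 and AIF1 at 0.

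KO compressed 2 stood apart from the other 4 KO libraries. Over the genes tested, its mean distance to them, as the root mean square difference of log2(CPM + 1), was 0.659, against 0.431 to 0.529 for the other compressed libraries and 0.428 to 0.444 for the controls. KO compressed 2 was nearer to WT compressed 1 to 3, at 0.531, 0.592 and 0.559, than to any KO library. Its nearest KO library was KO compressed 3, at 0.632. It had the fewest genes with a count, 14101 against 15367 to 15866 in the other 4. In it, 465 genes were at least 1 log2 unit below every other KO library and 45 at least 1 unit above, against 189 and 6 genes in KO compressed 1 and 0 and 6 in KO compressed 3. RECQL4, a DNA helicase, was at 16.5, 1.93 and 18.8 CPM in KO compressed 1 to 3, against 21.8 and 21.4 CPM in the controls. RNF5, a ubiquitin ligase of the endoplasmic reticulum, was at 29.5, 4.65 and 31.1 CPM, against 29.0 and 38.7 CPM. HNF4G, an epithelial nuclear receptor, was at 22.1, 53.1 and 21.9 CPM, against 22.0 and 20.5 CPM. In each of these genes, named after their values were seen, KO compressed 2 lay far from the other 4 libraries (adjusted p = 0.775, 0.797 and 0.773 in edgeR).

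The genes that set KO compressed 2 apart followed local gene density, measured as the number of coding genes in a window of 1 Mb centred on each gene in the deposited coordinates. In regions of 31 to 70 genes its median level was -0.522 log2 units from the KO control mean, and in regions of 0 to 7 genes it was 0.268. The same medians were -0.063 and -0.009 in KO compressed 1, and -0.029 and 0.041 in KO compressed 3. Of the 465 genes low in KO compressed 2, 242 lay in the densest and 26 in the sparsest of 5 classes of about equal size. Gene length set another library apart: over 357 genes of at least 8000 bases the median was -0.378 in KO compressed 1, 0.208 in KO compressed 2 and -0.036 in KO compressed 3. KO compressed 3 was nearer to the controls, at 0.334 and 0.306, than to KO compressed 1 at 0.452 or KO compressed 2 at 0.632, while the 2 controls were 0.272 apart. The part of these library differences in the results below was not tested, so values are given by library and with KO compressed 2 left out.

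**Figure D1:**
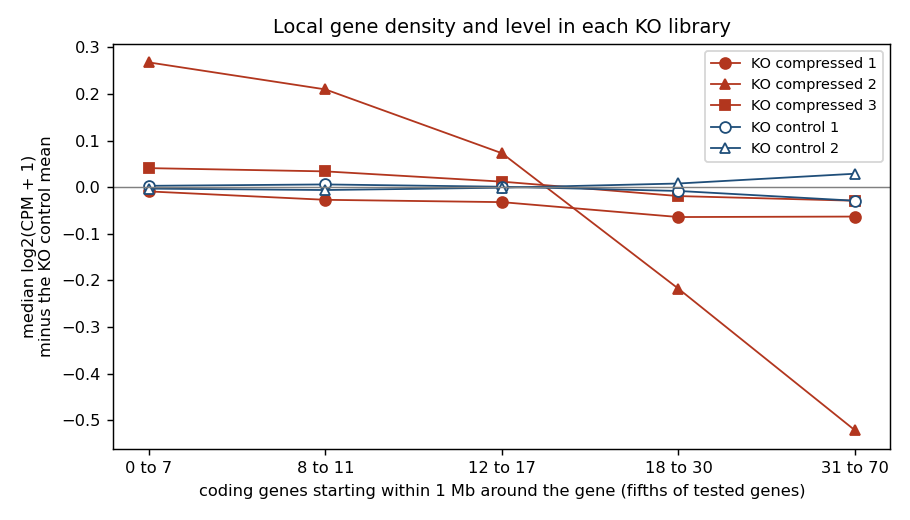
Median over genes of log2(CPM + 1) minus the KO control mean (vertical axis) in 5 classes of tested genes by the number of coding genes in a window of 1 Mb (horizontal axis), with a line for each KO library. KO compressed 2 runs between 0.268 in the sparsest and -0.522 in the densest class, while the other 4 libraries stay within 0.064 of 0.

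Across all genes, edgeR called 0 of 13560 genes between compressed and control KO cells at an adjusted p under 0.05 (0% called), the smallest adjusted p being 0.306. At an unadjusted p under 0.05, 828 genes (6.11%) stood out, 462 higher (3.41%) and 366 lower (2.7%) in compressed cells. A log2 fold change of at least 1 was found in 345 genes higher (2.54%) and 383 lower (2.82%). DESeq2 called 1 gene, with 982 at an unadjusted p under 0.05. The edgeR count of 828 was 203 without KO control 1, 429 without KO control 2 and 1636 without KO compressed 3. All 3 compressed libraries lay above both controls for 1834 genes (13.5%) and below both for 1905 (14%). Without KO compressed 2, edgeR again called 0 genes, of 13500, with a smallest adjusted p of 0.858, and 750 genes were at an unadjusted p under 0.05 (5.56%), 345 higher (2.56%) and 405 lower (3%). DESeq2 without it called 1, with 839 at an unadjusted p under 0.05. Both remaining compressed libraries lay above the controls for 20.6% and below them for 22.5% of genes, and a log2 fold change of at least 1 was found in 2.25% higher and 2.19% lower. Of the 824 stand-out genes tested both ways, all 824 had the same sign without that library, and 392 were again at a p under 0.05. Both fits share 4 of the 5 KO libraries, so this count describes the overlap alone. For every gene named below the edgeR adjusted p was 0.773 unless another is given, so directions are stated as where the libraries lie.

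Immediate early genes, the transcription factors and RNA-binding proteins induced first after a growth signal, lay lower in compressed KO cells. Of 32 members tested, 28 had a negative log2 fold change and 4 a positive one, with a median of -0.55, against -0.004 over all genes. At an unadjusted p under 0.05, 12 were lower and 0 higher, beside 2.7% and 3.41% of all genes. In 15 members all 3 compressed libraries lay below both controls, beside 14% of all genes, and in 1 above. FOS, an AP-1 subunit (chr8:48330836-48334338, CanFam3.1), was at 53.2, 46.3 and 48.5 CPM in compressed against 91.5 and 94.2 CPM in control libraries (log2 fold change -0.91 ± 0.20 (SE)). The 3 compressed libraries were within a few CPM of each other and far below both controls. Leaving out KO compressed 2 gave -0.87 ± 0.21.

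Among the remaining AP-1 and EGR members, FOSL1, JUNB and EGR1 lay below both controls in every compressed library, while JUN, JUND, FOSB and EGR2 overlapped. FOSL1, another FOS family subunit, was at 19.3, 6.67 and 15.2 CPM in compressed against 34.3 and 36.9 CPM in control libraries (log2 fold change -1.37 ± 0.33 (SE)). JUNB, a JUN partner of FOS, was at 11.1, 2.89 and 13.5 CPM against 36.1 and 33.1 CPM (log2 fold change -1.90 ± 0.56 (SE)). Both were lowest in KO compressed 2, and without it their log2 fold changes were -1.05 and -1.49. EGR1, a zinc finger factor induced by ERK, was at 13.6, 23.9 and 13.7 CPM against 37.3 and 33.2 CPM (log2 fold change -1.05 ± 0.33 (SE)). Here KO compressed 2 was the highest of the compressed libraries, and leaving it out gave -1.37 ± 0.32. CSRNP1, a nuclear transcription regulator, was at 22.9, 15.9 and 21.0 CPM against 39.8 and 35.1 CPM (log2 fold change -0.91 ± 0.22 (SE)). JUN itself overlapped between the groups, at 15.5, 8.42 and 27.4 CPM against 24.6 and 24.6 CPM (adjusted p = 0.784 in edgeR). JUND, another JUN subunit, whose symbol stands at overlapping loci and is uncertain, was at 17.1, 5.17 and 34.8 CPM against 26.3 and 28.7 CPM, and FOSB, a FOS subunit, at 1.64, 0.614 and 5.69 CPM against 3.58 and 2.77 CPM. In both, KO compressed 3 was above both controls, and the FOSB log2 fold change of -0.23 was 0.22 without KO compressed 2. EGR2 was at or under 1.24 CPM in all 5 libraries. The adjusted p was 0.832 for JUND, 0.961 for FOSB and 0.838 for EGR2 in edgeR.

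IER2, a short-lived nuclear protein, was at 37.3, 21.3 and 42.9 CPM in compressed against 56.7 and 63.7 CPM in control KO libraries. ZFP36, which binds AU-rich mRNAs and speeds their decay, was at 12.2, 6.84 and 12.6 CPM against 19.1 and 16.5 CPM. MYC, a growth-promoting transcription factor, was at 243, 163 and 186 CPM against 273 and 336 CPM. No compressed library reached a control in these 3 genes, whose log2 fold changes were -0.83, -0.75 and -0.62. KLF6 was at 21.4, 36.1 and 49.3 CPM against 62.0 and 53.3 CPM, KO compressed 1 being lowest and KO compressed 3 near the controls. ZFP36L1, a relative of ZFP36, with the zinc finger repressor KLF10 and the histone demethylase KDM6B made up the rest of the 12, between -0.99 and -0.63 on the log2 scale. SGK1, a kinase induced by steroids, serum and osmotic stress, was one of the 4 members on the other side, at 798, 554 and 729 CPM against 472 and 485 CPM (log2 fold change 0.54 ± 0.38 (SE), adjusted p = 0.78). As a median over the list, the 3 compressed libraries lay -0.626, -0.891 and -0.237 log2 units from the KO control mean, so KO compressed 3 departed least. The list's median was -0.41 without KO compressed 2, with 8 members lower and 0 higher at an unadjusted p under 0.05, beside 3% and 2.56% of all genes. Of the 32 members, 10 lay in windows of 31 or more coding genes, beside 2665 of 13399 genes placed. In KO compressed 2, 5 were at least 1 log2 unit lower than in any other KO library, beside 465 of 13560 genes. Without KO control 2 the count of 12 was 6, and without KO compressed 3 the median was -0.9.

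Feedback inhibitors of ERK signalling and ligands of the EGF receptor also lay lower in compressed KO cells. Of 21 tested, 19 had a negative log2 fold change, the median was -0.65, and 10 were lower and 0 higher at an unadjusted p under 0.05, beside 2.7% and 3.41% of all genes. All 3 compressed libraries lay below both controls in 13 of them, beside 14% of all genes, and above both in 0. The count of 10 was 3 without KO control 1 and 5 without KO control 2, so it rests on having both controls. ERRFI1 (MIG6), which binds and inhibits the EGF receptor kinase, was at 32.5, 31.6 and 25.7 CPM in compressed against 65.0 and 77.1 CPM in control libraries (log2 fold change -1.25 ± 0.37 (SE)). Every compressed library lay far below either control, with KO compressed 3 the lowest, and KO compressed 2 did not set the gap (-1.29 ± 0.41 without it).

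The Sprouty proteins, which block RAS and RAF activation, were measured at several loci. SPRY1 was at 4.33, 3.25 and 4.27 CPM in compressed against 8.32 and 8.20 CPM in control libraries (log2 fold change -1.06 ± 0.35 (SE)). SPRY2 was at 28.2, 22.2 and 21.5 CPM against 44.3 and 33.6 CPM (log2 fold change -0.70 ± 0.24 (SE)). SPRY4 was at 2.17, 1.40 and 0.619 CPM against 4.24 and 3.26 CPM (log2 fold change -1.44 ± 0.47 (SE)), a low level where few reads limit the precision. In all 3 Sprouty genes the compressed and control libraries were apart. The phosphatases that act on MAP kinases were less uniform. DUSP6, specific for ERK in the cytoplasm, was at 109, 85.5 and 47.1 CPM against 116 and 124 CPM (log2 fold change -0.58 ± 0.26 (SE)), with KO compressed 3 the lowest and KO compressed 1 next to the controls. DUSP5, its nuclear counterpart, was at 266, 238 and 161 CPM against 350.2 and 347 CPM (log2 fold change -0.65 ± 0.29 (SE)). DUSP1 overlapped between the groups, at 19.8, 26.8 and 22.1 CPM against 25.4 and 24.8 CPM (adjusted p = 0.946 in edgeR). DUSP10, which acts on JNK and p38, overlapped as well, at 24.8, 11.1 and 28.0 CPM against 16.6 and 15.7 CPM (adjusted p = 0.831 in edgeR).

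Of the ligands, HBEGF, a membrane-anchored growth factor released by shedding, was at 8.14, 3.68 and 4.39 CPM in compressed against 10.1 and 12.3 CPM in control libraries (log2 fold change -1.05 ± 0.32 (SE)). TGFA was at 2.46, 0.877 and 1.55 CPM against 3.52 and 3.58 CPM (log2 fold change -1.11 ± 0.43 (SE)). PHLDA1 was at 28.7, 9.21 and 30.4 CPM against 41.9 and 37.0 CPM, and its log2 fold change of -0.79 was -0.42 without KO compressed 2, its lowest library. DUSP2 was the last of the 10, at -1.30 ± 0.56. For the list as a whole the library medians were -0.387, -0.548 and -0.813 log2 units, so the largest departure was in KO compressed 3, the library otherwise nearest to the controls. Leaving KO compressed 2 out of the fit, the list's median was -0.62. At an unadjusted p under 0.05, 9 members were then lower and 0 higher, beside 3% and 2.56% of all genes. The members had a median of 8 coding genes within 1 Mb, against 14 over all genes.

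**Figure D2:**
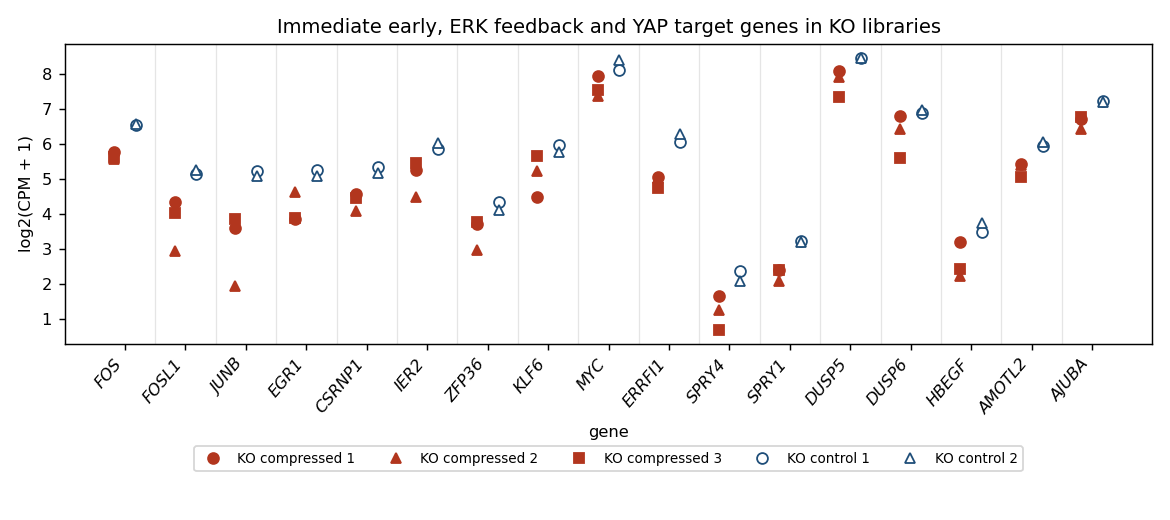
Level of immediate early, ERK feedback and YAP target genes as log2(CPM + 1) (vertical axis) in each KO library, compressed as filled red and control as open blue symbols, by gene (horizontal axis). The genes shown are a selection without overlap, in which all 3 compressed libraries lie below both controls. Members that overlap, such as JUN, DUSP1 and CYR61, are left out. Of the members tested, 15 of 32 immediate early, 13 of 21 ERK feedback and 7 of 22 YAP genes lie below in this way. JUNB and FOSL1 are lowest in KO compressed 2 and DUSP6 is lowest in KO compressed 3.

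Targets of the coactivator YAP and the TEAD transcription factors, which report cell spreading and tension, lay lower on balance in compressed KO cells. Of 22 tested, 20 had a negative log2 fold change, with a median of -0.34. At an unadjusted p under 0.05, 4 were lower and 1 higher, beside 2.7% and 3.41% of all genes, and 7 lay with every compressed library below both controls, beside 14%. AMOTL2, an angiomotin that binds YAP, was at 42.1, 41.3 and 32.4 CPM in compressed against 60.3 and 65.1 CPM in control libraries (log2 fold change -0.70 ± 0.19 (SE)). AJUBA, a LIM protein that inhibits the LATS kinases, was at 104, 85.3 and 107 CPM against 149 and 145 CPM (log2 fold change -0.57 ± 0.22 (SE)). The groups were apart in both. CYR61, a secreted matricellular protein and common YAP readout, was at 158, 112 and 85.8 CPM against 144 and 197 CPM (log2 fold change -0.52 ± 0.24 (SE)), and KO compressed 1 lay between the controls. CTGF was at 12.8, 9.74 and 7.80 CPM against 11.9 and 16.1 CPM and overlapped (log2 fold change -0.47 ± 0.43 (SE), adjusted p = 0.817). FSTL1 lay the other way, at 23.0, 26.4 and 22.6 CPM against 16.8 and 17.4 CPM (log2 fold change 0.49 ± 0.21 (SE)). LATS2, the kinase that inactivates YAP and is itself a target, was at 32.1, 52.8 and 30.4 CPM against 44.8 and 55.0 CPM. KO compressed 2 matched the controls there, and the log2 fold change of -0.38 was -0.68 ± 0.17 without it. The list without KO compressed 2 had a median of -0.38. At an unadjusted p under 0.05, 3 members were then lower and 0 higher, beside 3% and 2.56% of all genes. The count of 4 lower was 2 without KO control 1 and 1 without KO control 2.

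In the TGF-beta and BMP list of 28 genes, 4 were lower and 0 higher at an unadjusted p under 0.05, beside 2.7% and 3.41% of all genes, with a median of -0.1. The 4 were the inhibitory SMADs, a ubiquitin ligase and a BMP target. SMAD7, which blocks the TGF-beta receptor, was at 3.58, 2.72 and 2.04 CPM in compressed against 6.89 and 5.98 CPM in control libraries (log2 fold change -1.21 ± 0.37 (SE)). SMAD6, the BMP counterpart, was at 10.2, 3.95 and 14 CPM against 25.4 and 25.6 CPM (log2 fold change -1.43 ± 0.59 (SE)). SMAD6 was lowest in KO compressed 2, and without that library it was -1.07 ± 0.57. SMURF1, a ligase for SMADs and RHOA, and ID3, a helix-loop-helix inhibitor induced by BMP, had log2 fold changes of -0.50 and -0.68. SMAD7 was the only member of the list at an unadjusted p under 0.05 once KO compressed 2 was left out. In that fit 3% of all genes were lower and 2.56% higher. SNAI1, a repressor of E-cadherin, was at 12.1, 6.93 and 7.36 CPM against 15.0 and 14 CPM (log2 fold change -0.72 ± 0.29 (SE)), the one member of 12 in the mesenchymal transition list at an unadjusted p under 0.05. Without KO compressed 2 that list had 1 member higher and 0 lower, the higher one being SNAI3, a relative at or under 1.24 CPM in the KO libraries (adjusted p with all libraries 0.816 in edgeR).

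Messenger RNAs encoded by the mitochondrial genome lay higher in compressed KO cells. They encode core subunits of respiratory complexes I, III and IV and of ATP synthase. All 13 had a positive log2 fold change, between 0.34 and 0.88 with a median of 0.56, and 10 were higher at an unadjusted p under 0.05, beside 3.41% of all genes. In 11 of them every compressed library lay above both controls, beside 13.5% of all genes. Their share of all counts was 3.24%, 2.85% and 4.68% in KO compressed 1 to 3, against 2.62% and 2.56% in the controls. An exact permutation test of that share over the 10 arrangements of 3 and 2 libraries gave a two-sided p = 0.2, the smallest the design allows.

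MT-ND4, a proton-pumping subunit of complex I (chrMT:10201-11578, CanFam3.1, matched by protein), was at 3466, 3602 and 4849 CPM in compressed against 2216 and 2193 CPM in control KO libraries (log2 fold change 0.85 ± 0.21 (SE)). Each compressed library was well above both controls, and without KO compressed 2 the value was 0.92. MT-ATP8, a small subunit of ATP synthase, was at 32, 27.4 and 36.1 CPM against 17.0 and 17.8 CPM (log2 fold change 0.88 ± 0.27 (SE)). MT-ND4L, whose reading frame overlaps that of MT-ND4, was at 269, 469 and 442 CPM against 231 and 207 CPM (log2 fold change 0.84 ± 0.29 (SE)), with KO compressed 1 the nearest to the controls. MT-CO1, the catalytic subunit of complex IV, was at 9092, 8458 and 13710 CPM against 7449 and 6678 CPM (log2 fold change 0.56 ± 0.24 (SE)). ND5, another complex I subunit, was at 1081, 1211 and 2008 CPM against 992 and 867 CPM (log2 fold change 0.62 ± 0.24 (SE)). In both genes KO compressed 3 was far above the other compressed libraries, which lay nearer to the controls than to it.

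Among the remaining mitochondrial mRNAs, MT-ND6 was at 475, 296 and 635 CPM in compressed against 291 and 307 CPM in control libraries, KO compressed 2 lying between the controls. MT-ND2 and MT-ND3 had the widest errors relative to their size, 0.46 ± 0.29 and 0.34 ± 0.22, and COX3 had 0.37 ± 0.20. The list medians by library were 0.443, 0.142 and 0.92 log2 units above the KO control mean, so KO compressed 2 contributed least and KO compressed 3 most. Without KO compressed 2 the median was 0.69, with 11 members higher at an unadjusted p under 0.05, beside 2.56% of all genes. All 13 were then apart, beside 20.6% of all genes. Without KO compressed 3 the median was 0.31, with 3 members at an unadjusted p under 0.05. The count was 4 without KO control 1 and 2 without KO control 2.

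Cytosolic ribosomal protein genes lay higher in compressed KO cells, chiefly in KO compressed 1. Of 69 tested, 62 had a positive log2 fold change, with a median of 0.33, and 23 were higher and 0 lower at an unadjusted p under 0.05, beside 3.41% and 2.7% of all genes. The median over members was 0.577, 0.321 and 0.024 log2 units in KO compressed 1 to 3, so KO compressed 3 did not depart from the controls, at -0.071 and 0.071. Their share of counts was 5.66%, 4.63% and 4.09%, against 3.95% and 4.34% (exact permutation p = 0.4, two-sided). RPL35A was at 585, 560.0 and 359.7 CPM in compressed against 286 and 301 CPM in control libraries (log2 fold change 0.77 ± 0.21 (SE)). RPS28 was at 343, 282 and 197 CPM against 137 and 185 CPM (log2 fold change 0.77 ± 0.23 (SE)). A locus matched to RPL37 was at 139, 120.5 and 71.7 CPM against 43.9 and 52.9 CPM (log2 fold change 1.19 ± 0.26 (SE)). In all 3 the order was the same, with KO compressed 3 nearest to the controls. The count of 23 was 9 without KO compressed 1, 37 without KO compressed 3 and 2 without KO control 1. Without KO compressed 2 the list's median was 0.35, with 22 members higher and 0 lower, beside 2.56% and 3% of all genes. With all libraries, every compressed library lay above both controls in 23 members, beside 13.5% of all genes, and below both in 0. Ribosomal protein genes have many near-identical copies, among which reads may be split, so single loci are uncertain. Their median length was 622 bases, against 2156 over all genes, and of all 1024 genes under 500 bases 7.32% were higher and 3.03% lower at an unadjusted p under 0.05. The part of transcript length in this result was not tested.

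Nuclear genes of the respiratory chain, with a median length of 786 bases, were also highest in KO compressed 1 and 2. Of 58 tested, 8 were higher and 0 lower at an unadjusted p under 0.05, beside 3.41% and 2.7% of all genes, the median was 0.17, and the library medians were 0.304, 0.231 and 0.001. Without KO compressed 2, 6 were higher and 0 lower, beside 2.56% and 3% of all genes. NDUFA2, an accessory subunit of complex I, was at 82.7, 94.2 and 52.3 CPM in compressed against 35.6 and 43.1 CPM in control libraries (log2 fold change 0.96 ± 0.27 (SE)). NDUFB9 was at 182, 165 and 112 CPM against 90.4 and 104 CPM (log2 fold change 0.66 ± 0.23 (SE)). ATP5ME, a small subunit of ATP synthase, was at 13.4, 16.2 and 9.96 CPM against 6.22 and 6.90 CPM (log2 fold change 1.00 ± 0.30 (SE)). KO compressed 3 was the compressed library nearest to the controls in each. The median of the mitochondrial mRNAs, in contrast, was highest in KO compressed 3.

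Interferon-stimulated genes lay higher mainly through KO compressed 2. All 33 tested had a positive log2 fold change, with a median of 0.57, and 9 were higher at an unadjusted p under 0.05, beside 3.41% of all genes. Without KO compressed 2 the median was 0.25 and 0 members were at an unadjusted p under 0.05 in edgeR, beside 2.56% of all genes. The count of 9 was also 0 without KO control 2, and 5 without KO control 1. The library medians were 0.233, 1.04 and 0.271 log2 units, against 0.179 and -0.179 in the controls, so KO compressed 1 and 3 were hardly above KO control 1. In 6 of the 33, KO compressed 2 was at least 1 log2 unit above every other KO library, beside 45 such genes of 13560.

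RSAD2 (viperin, chr17:4488288-4508752, CanFam3.1), an antiviral enzyme, was at 59.3, 214 and 86.3 CPM in compressed against 41.8 and 25.9 CPM in control KO libraries (log2 fold change 1.82 ± 0.79 (SE)). MX1, an antiviral GTPase, was at 39.3, 109 and 36.7 CPM against 28.8 and 16.2 CPM (log2 fold change 1.45 ± 0.54 (SE)). Both were above the controls in every compressed library, but without KO compressed 2 they were 1.11 ± 0.73 and 0.76 ± 0.44. IFI44 was at 60.9, 185 and 86.2 CPM against 87.1 and 56.9 CPM, and without KO compressed 2 its log2 fold change of 0.62 was 0.03. IFI44L was at 15.0, 55.0 and 21.2 CPM against 17.7 and 10.2 CPM, KO compressed 1 lying between the controls. The cytoplasmic RNA sensors IFIH1 and DDX58 were at 68.8, 128 and 73.0 CPM against 63.7 and 58.0 CPM, and at 26.3, 46.9 and 24.7 CPM against 23.0 and 16.4 CPM. The controls themselves differed in this list, KO control 1 being above KO control 2 in RSAD2, MX1, IFI44 and IFI44L. The interferon-stimulated genes had a median of 11 coding genes within 1 Mb, against 14 over all genes.

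**Figure D3:**
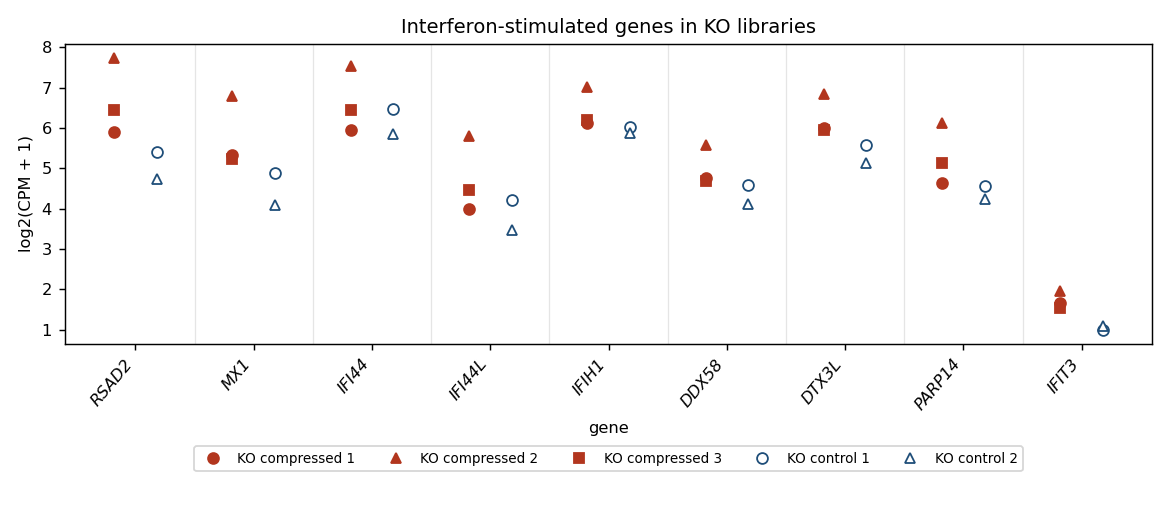
Level of interferon-stimulated genes as log2(CPM + 1) (vertical axis) in each KO library, compressed as filled red and control as open blue symbols, by gene (horizontal axis). KO compressed 2 is the highest library in every gene shown, and KO compressed 1 and 3 lie close to KO control 1 in IFI44L and IFIH1. In IFI44, KO compressed 3 lies close to KO control 1 and KO compressed 1 close to KO control 2.

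**Figure D4:**
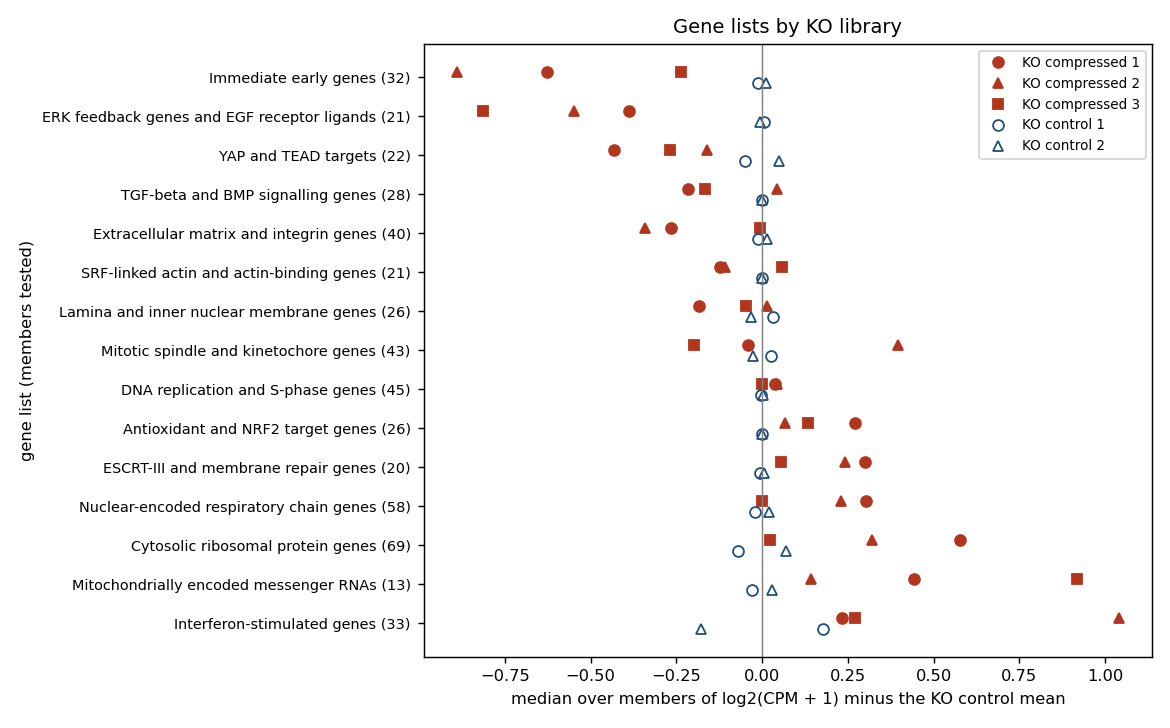
Median over list members of log2(CPM + 1) minus the KO control mean (horizontal axis) in each KO library, compressed as filled red symbols above and control as open blue symbols below, for 15 gene lists with the number of members tested (vertical axis). Immediate early, ERK feedback and YAP lists lie left of 0 in all 3 compressed libraries, the mitochondrial list lies right of 0 with KO compressed 3 at 0.92, and the interferon list is led by KO compressed 2 at 1.04.

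Antioxidant and NRF2 target genes had 4 members of 26 higher and 0 lower at an unadjusted p under 0.05, beside 3.41% and 2.7% of all genes, with a median of 0.18. PRDX3, the mitochondrial peroxiredoxin, was at 229, 252 and 205 CPM in compressed against 175 and 161 CPM in control libraries (log2 fold change 0.45 ± 0.15 (SE)). NFE2L2, which encodes NRF2, was at 266, 309.8 and 235 CPM against 208 and 189 CPM (log2 fold change 0.45 ± 0.18 (SE)). SOD1, the cytosolic superoxide dismutase, was at 184, 168 and 142 CPM against 121 and 127 CPM (log2 fold change 0.41 ± 0.17 (SE)). These 3 were apart in every library. TXN, thioredoxin, was at 23.1, 38.3 and 12.4 CPM against 10.6 and 12.1 CPM (log2 fold change 1.11 ± 0.43 (SE)), KO compressed 3 barely above the controls. The 306 bases of this TXN locus, on chromosome X, fill its whole span, so its identity is uncertain. Once KO compressed 2 was left out, 3 members were higher and 0 lower at an unadjusted p under 0.05, beside 2.56% and 3% of all genes. The 3 were PRDX3, SOD1 and the peroxiredoxin PRDX6, and NFE2L2 and TXN were not at that p.

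ESCRT-III and membrane repair genes, which reseal the nuclear envelope and plasma membrane after rupture, had 2 of 20 higher and 0 lower at an unadjusted p under 0.05, beside 3.41% and 2.7% of all genes. In 11 of the 20 every compressed library lay above both controls, beside 13.5% of all genes, with a list median of 0.19. Without KO compressed 2 the counts were again 2 higher and 0 lower, beside 2.56% and 3% of all genes. CHMP2B, an ESCRT-III subunit, was at 68.1, 85.5 and 59.7 CPM in compressed against 47.9 and 46.9 CPM in control libraries (log2 fold change 0.58 ± 0.20 (SE)). MITD1, which recruits to ESCRT-III at cell division, was at 6.35, 8.68 and 4.46 CPM against 2.31 and 3.42 CPM (log2 fold change 1.17 ± 0.41 (SE)). CHMP4B, the main filament subunit, was at 158, 165 and 146 CPM against 119.9 and 129 CPM (log2 fold change 0.33 ± 0.16 (SE)). CHMP7, the nuclear adaptor that binds LEMD2, was at 26.1, 28.5 and 19.2 CPM against 18.9 and 19.1 CPM (log2 fold change 0.37 ± 0.23 (SE)). KO compressed 3 was closest to the controls in all 4 genes, and in CHMP7 it was next to them.

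Genes of the nuclear envelope itself departed little. Of 26 lamina and inner nuclear membrane genes, 0 were higher and 1 lower at an unadjusted p under 0.05, beside 3.41% and 2.7% of all genes, with a median of -0.13. LMNB1, lamin B1, was at 376, 482 and 449 CPM in compressed against 465 and 408 CPM in control libraries and overlapped (adjusted p = 0.998 in edgeR). LMNB2, lamin B2, was at 40.0, 30.5 and 42.6 CPM against 58.5 and 48.1 CPM (log2 fold change -0.50 ± 0.29 (SE)). EMD, emerin, was at 94.3, 61.6 and 90.3 CPM against 103 and 106 CPM (log2 fold change -0.35 ± 0.24 (SE)). In both, all compressed libraries lay below the controls and KO compressed 2 was the lowest. The member lower at an unadjusted p under 0.05 was CBX5, which encodes the heterochromatin protein HP1 alpha and also stands in the heterochromatin list, at 40.8, 45.6 and 56.1 CPM against 80.8 and 67.7 CPM (log2 fold change -0.64 ± 0.21 (SE)). That list of 34 held 1 lower and 1 higher, and the higher one was EED, a Polycomb subunit (0.36 ± 0.16). Of 27 nuclear pore genes, 0 were higher and 1, NUP188, lower (-0.40 ± 0.17). Without KO compressed 2 the lamina and heterochromatin lists each had 0 higher and 2 lower, beside 2.56% and 3% of all genes. The nuclear pore list then had 0 higher and 0 lower. CBX5 was still at that p without KO compressed 2, and EED and NUP188 were not.

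Adhesion and load-bearing genes held few members past the same threshold, beside 3.41% higher and 2.7% lower of all genes. In extracellular matrix and integrin genes, 4 of 40 were lower and 0 higher, the hemidesmosome genes COL17A1 and ITGB4, the laminin chain LAMA5 and the urokinase receptor PLAUR. ITGB4 was at 247, 234 and 320.4 CPM in compressed against 349 and 359 CPM in control libraries (log2 fold change -0.41 ± 0.16 (SE)). COL17A1 was at 385, 352 and 489 CPM against 582 and 519 CPM (log2 fold change -0.43 ± 0.17 (SE)). Both were apart in every library, and without KO compressed 2 neither was at an unadjusted p under 0.05. The balance of that list turned without KO compressed 2, with 2 members higher, COL5A1 and TIMP1, and 1 lower, ITGA6, beside 2.56% and 3% of all genes. With all libraries the adjusted p was 0.775 for COL5A1 and 0.807 for TIMP1 in edgeR. Of 17 mechanosensitive channel genes, 1 was lower and 0 higher, PKD1, polycystin 1, at 29.6, 28.9 and 47.1 CPM against 57.5 and 62.7 CPM (log2 fold change -0.77 ± 0.30 (SE)). PIEZO1, the stretch-activated cation channel, was at 247, 162 and 275 CPM against 268 and 314 CPM and overlapped (log2 fold change -0.35 ± 0.22 (SE)), as did TRPV4 at 203, 104 and 189 CPM against 199 and 211 CPM (adjusted p = 0.793 in edgeR). Tight junction genes had 1 of 27 higher, CLDN16, and 0 lower, and adherens junction and desmosome genes 1 of 22 higher, EPCAM, and 0 lower. Neither CLDN16 nor EPCAM stood at that p without KO compressed 2, and the adherens junction and desmosome list had 0 members higher and 1 lower, the cadherin CDH6 (adjusted p with all libraries 0.912 in edgeR). SRF-linked actin genes had 1 of 21 lower, FLNA, the actin cross-linker filamin A at -0.53 ± 0.24, and 0 higher. Without KO compressed 2 the SRF-linked and tight junction lists each had 0 higher and 0 lower. The channel list then had 0 higher and 1 lower, and PKD1 was not at that p.

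Proliferation, stress and metabolic lists held few members past the same threshold, beside 3.41% higher and 2.7% lower of all genes. Of 45 DNA replication genes 0 were past the threshold. Of 43 mitotic genes 1 was higher, the securin PTTG1, and 0 lower, but the library medians of that list were -0.041, 0.395 and -0.2, and without KO compressed 2 the counts were 1 higher and 5 lower. DLGAP5, a spindle protein, was at 124, 193 and 102 CPM in compressed against 108 and 95.9 CPM in control libraries, with KO compressed 2 by far the highest. Nucleolar genes had 0 of 36, osmolyte and volume genes 0 of 22, Notch genes 0 of 13 and Wnt genes 0 of 18 past the threshold. NF-kB genes had 0 of 14 higher and 1 lower, the cytokine LIF at 31.7, 12.3 and 28.3 CPM against 39.1 and 47.9 CPM. The list's library medians of 0.084, -0.612 and 0.029 set KO compressed 2 apart there too. p53 targets had 0 of 25 higher and 1 lower, PHLDA3 (-1.03 ± 0.39). Cell death genes had 3 of 30 higher and 2 lower, the lower ones being FADD and BCL2L1. Unfolded protein and integrated stress response genes had 1 of 37 higher, the asparagine synthetase ASNS, and 0 lower. Heat shock genes had 1 of 24 higher, CACYBP, and 0 lower. Sterol and fatty acid genes had 0 of 31 higher and 1 lower, the LDL receptor at 204, 164 and 196 CPM against 265 and 261 CPM (log2 fold change -0.48 ± 0.16 (SE)). Hypoxia and glycolysis genes had 1 of 35 higher, ALDOC, and 0 lower. Cilium genes had 1 of 43 higher, IFT43, and 0 lower, with a library median of 0.367 in KO compressed 2 against -0.013 and 0.055 in KO compressed 1 and 3. Clock genes had 0 of 16 higher and 2 lower, the nuclear receptor NR1D1 at -0.70 ± 0.30 and DBP at -1.05 ± 0.42. With KO compressed 2 left out, unfolded protein genes had 1 higher and 2 lower, osmolyte genes 0 higher and 2 lower, hypoxia and glycolysis genes 2 higher and 0 lower, and Wnt and cilium genes 1 each way. NF-kB genes then had 0 higher and 0 lower, clock genes 0 and 1, cell death genes 2 and 2 and heat shock genes 1 and 0. All are beside 2.56% higher and 3% lower of all genes. LIF, NR1D1, DBP, FADD and CACYBP were not at that p without KO compressed 2.

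Among single genes, a locus matched to UAP1L1, a relative of the pyrophosphorylase that makes UDP-N-acetylglucosamine, had the smallest p of all. At chr9:48528903-48531662 (CanFam3.1), it was at 0.597, 0.439 and 0.743 CPM in KO compressed 1 to 3, against 5.45 and 7.06 CPM in KO control 1 and 2 (log2 fold change -3.36 ± 0.53 (SE), adjusted p = 0.306). All compressed libraries were under 1 CPM, a level of few reads. WT libraries were as low, at 0.154, 0.508 and 0.303 CPM in compressed and 0.315, 0.805 and 0.55 CPM in control cells. Only the 2 KO controls were above 1 CPM at this locus. DESeq2 called it with and without KO compressed 2, at adjusted p = 0.00031 and 0.0103. A locus matched to ARHGEF1, an exchange factor for RHOA, was similarly low, at 1.34, 0.175 and 0.866 CPM against 6.45 and 11 CPM (log2 fold change -3.41 ± 0.92 (SE)). Each match rests on protein similarity and each is uncertain as a gene name.

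TET3, which oxidises 5-methylcytosine, was at 3.21, 7.89 and 9.59 CPM in compressed against 19.7 and 19.8 CPM in control libraries (log2 fold change -1.51 ± 0.48 (SE)). MEX3D, an RNA-binding protein, was at 15.8, 7.28 and 27.2 CPM against 53.2 and 43.4 CPM (log2 fold change -1.52 ± 0.51 (SE)). MAFK, a small MAF partner of NRF2, was at 6.94, 3.51 and 6.31 CPM against 14.1 and 11.2 CPM (log2 fold change -1.17 ± 0.28 (SE)). In each the compressed libraries lay below both controls, with KO compressed 1 lowest in TET3 and KO compressed 2 lowest in the other two. ZNF697, a zinc finger gene, had a log2 fold change of -1.24 ± 0.32, and -0.99 without KO compressed 2.

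On the higher side, a locus matched to CYP4A11, a fatty acid hydroxylase, was at 26.2, 26.7 and 28.8 CPM in compressed against 13.0 and 12.4 CPM in control libraries (log2 fold change 1.10 ± 0.29 (SE)). Its compressed libraries were within 3 CPM of each other, and leaving out KO compressed 2 gave 1.11. A locus matched to GSTA2, a glutathione transferase, was at 750.3, 729.7 and 529 CPM against 407 and 409.7 CPM (log2 fold change 0.71 ± 0.19 (SE)). A locus matched to GPX8, a peroxidase of the endoplasmic reticulum, was at 10.7, 11.1 and 4.46 CPM against 3.31 and 3.53 CPM (log2 fold change 1.34 ± 0.40 (SE)). SEPP1, the selenium carrier selenoprotein P, was at 24.9, 44.0 and 20.1 CPM against 11.9 and 11.4 CPM (log2 fold change 1.34 ± 0.51 (SE)). Both were above the controls in every compressed library, and KO compressed 3 was the nearest to them. Loci matched to PPIA, ARF1, GAPDH and TMSB4 had log2 fold changes of 0.98, 1.25, 0.58 and 1.60. Such genes have near-identical copies, and these loci are uncertain. The GPX8 match is uncertain as well, since the 630 bases of its locus fill the whole span.

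Some genes stood out only once KO compressed 2 was left out. RASA4B, a RAS GTPase-activating protein, was at 52.5, 23.1 and 62.2 CPM in compressed against 31.7 and 36.8 CPM in control libraries. TGFBI, a matrix protein induced by TGF-beta, was at 34.9, 10.3 and 31.3 CPM against 18.4 and 17.1 CPM. In both, KO compressed 2 lay below the controls and the other compressed libraries above. With KO compressed 2 their log2 fold changes were 0.42 ± 0.32 and 0.52 ± 0.39, and without it 0.74 ± 0.21 and 0.90 ± 0.25. The adjusted p with all libraries was 0.79 and 0.787 in edgeR. MOB1B, an activator of the LATS kinases, was at 1.79, 13.0 and 5.38 CPM against 12.3 and 9.29 CPM, KO compressed 2 being above both controls. Its log2 fold change was -0.70 ± 0.51 with, and -1.57 ± 0.39 without, that library (adjusted p with all libraries 0.784 in edgeR).

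Whether compression acted differently in KO than in WT cells was tested as the interaction of genotype and compression. edgeR called 0 of 13560 genes, with a smallest adjusted p of 0.939 and 650 genes (4.79%) at an unadjusted p under 0.05, 343 more positive (2.53%) and 307 more negative (2.26%) in KO cells. DESeq2 also called 0, with 785 at an unadjusted p under 0.05. Without KO compressed 2, edgeR again called 0 genes, with 2272 at an unadjusted p under 0.05, while DESeq2 called 370. The voom method of limma with sample weights called 1054. It gave KO compressed 2 the lowest weight of the 11, 0.19, and also reweighted others, from 0.295 in WT control 1 to 6.36 in WT control 3. The part of each library in its count was not tested. Immediate early and ERK feedback genes had medians of -0.55 and -0.65 in KO cells, against -0.74 and -0.67 in WT cells, with 3 of 32 and 0 of 21 members at an unadjusted interaction p under 0.05. FOS differed between KO and WT by 0.28 ± 0.27 log2 units. Interferon-stimulated genes had medians of 0.57 in KO and 1.01 in WT cells, with 0 members more positive and 1 more negative in KO cells at that p.

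The mitochondrially encoded genes were a list where KO and WT cells lay on opposite sides. Their median log2 fold change was 0.56 in KO and -0.32 in WT cells, and the difference had a median of 0.98, with 11 of 13 members at an unadjusted interaction p under 0.05 in that direction, beside 2.53% of all genes. The share of counts in these mRNAs was 3.24%, 2.85% and 4.68% in KO compressed and 2.62% and 2.56% in KO control libraries. In WT cells it was 2.06%, 2.03% and 2.18% in compressed and 3.76%, 2.68% and 2.58% in control libraries. MT-CO1 was at 4639, 4340 and 6332 CPM in WT compressed and at 11010, 7356 and 7135 CPM in WT control libraries, so every WT compressed library lay below every WT control, the reverse of KO cells. Its KO effect exceeded its WT effect by 1.30 ± 0.33 log2 units (adjusted p = 0.939). Of the 13 genes, voom called 10 more positive in KO cells, beside 361 of 13560 genes. DESeq2 without KO compressed 2 called 7, beside 188 of 13500 genes. The median difference was 1.08 without KO compressed 2. It was 0.79 without WT control 1, the WT library with the largest share, and also 0.79 without KO compressed 3, and all 13 differences stayed positive in both. MTRF1, a mitochondrial peptide chain release factor encoded in the nucleus, lay the other way, at 4.85, 5.17 and 6.81 CPM in KO compressed against 9.20 and 8.26 CPM in KO control libraries, and at 12.4, 9.99 and 14.3 CPM in WT compressed against 6.78, 6.24 and 5.74 CPM in WT control libraries (difference -1.60 ± 0.36, adjusted p = 0.939).

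**Figure D5:**
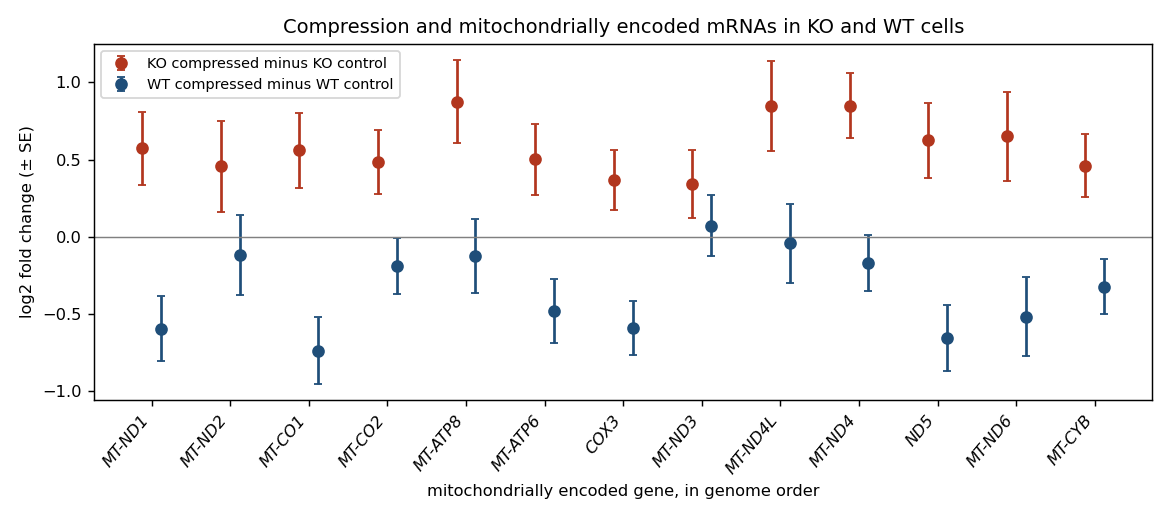
Log2 fold change of compressed over control cells (vertical axis, points with SE bars) for the 13 mitochondrially encoded mRNAs in genome order (horizontal axis), KO in red to the left of WT in blue. All 13 KO values are above 0, between 0.34 and 0.88, while 12 of the 13 WT values are below 0.

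Other genes with the smallest interaction p departed more in WT than in KO cells. SLIT2, a secreted guidance ligand, had log2 fold changes of 0.67 ± 0.74 in KO and -3.49 ± 0.72 in WT cells. EFNB2, an ephrin ligand, had 0.07 ± 0.30 in KO and -1.51 ± 0.29 in WT cells. The KO libraries overlapped in both and the WT libraries did not, with WT control 1 the highest WT library in each. GTPBP10, a GTPase of ribosome assembly, had 0.09 ± 0.18 in KO and 1.03 ± 0.17 in WT cells, and its difference of -0.94 ± 0.24 had an adjusted p of 0.939 like the others. The adjusted p of the KO effect was 0.835 for SLIT2, 0.968 for EFNB2 and 0.916 for GTPBP10 in edgeR.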

How the data were processed

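RNA from 11 MDCKII libraries was sequenced. The authors' deposited table gives read counts per gene and FPKM, a unit scaled for gene length and depth, per the file headers. CASAVA, FastQC, HISAT2 2.0.5 and the CanFam3.1 build are named in the submitters' processing notes. No source used here gives the gene counter, annotation or strand setting, so overlapping and antisense genes cannot be told apart.

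Counts were analysed with edgeR 4.0.16 in R 4.3.3: default filtering (13560 genes tested), TMM scaling, and 1 quasi-likelihood fit of 4 groups with 7 residual degrees of freedom, with Benjamini-Hochberg adjustment. Statistics were tested on simulated data. Alternatives used DESeq2 1.42.0, limma 3.58.1 on voom values and on log2(FPKM + 1), other scalings and filters, and leaving out each library. FPKM were otherwise unused.

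Gene symbols came from the table for 17933 of 26178 genes and from matched proteins for 4743. Loci of multicopy families are uncertain. The members and gene lists were chosen with earlier results of these data known. Named genes were LMNA and, among genes averaging at least 5 CPM in the higher KO group, the 8 largest non-overlapping differences each way, the 6 smallest p each way and the 8 smallest each way without KO compressed 2. The 3 smallest p per list had no such floor, and the 5 smallest interaction p each way had it. Some genes that this rule selects are not reported here. Other genes named were chosen after their values were seen. Totals were 10420214 to 17999623 counts. Every pair of replicates differed by more than counting noise (chi-square per gene of at least 5.86). Exact permutation tests over 10 arrangements of 3 and 2 libraries cannot go below p = 0.2.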

Additional observations from a re-analysis of the deposited data

Results flagged for a closer look

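In 9 of the genes named, every KO compressed library lay on one side of the KO controls and every WT compressed library on the other side of the WT controls. Over all genes this held for 0.317% with KO higher and 0.243% with KO lower. Some of the 9, such as MT-CO1, ND5 and MTRF1, were named for a small interaction p. The count of 9 therefore cannot be compared with those shares. The adjusted interaction p was 0.939 in edgeR for each of the 9, so none of these differences passed. The mitochondrial genes among them had KO effects above WT effects by 1.30 log2 units in MT-CO1, 1.28 in ND5, 1.17 in MT-ND1, 0.98 in MT-ATP6, 0.96 in COX3 and 0.78 in MT-CYB. For the 13 mitochondrial mRNAs the median difference was 0.98, and for their share of counts it was 1.92 percentage points, 1.0 in KO and -0.917 in WT cells. The list median and the share were not tested for this difference. MTRF1, a mitochondrial release factor, lay the opposite way at -1.60.

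Outside the mitochondrial genome, FADS2, a fatty acid desaturase, differed by 0.93 log2 units, 0.30 in KO and -0.63 in WT cells. P4HA2, a collagen prolyl hydroxylase, differed by 0.69, 0.32 in KO and -0.37 in WT cells.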

How the results depend on the processing

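edgeR called 0 genes in KO cells with every library left out in turn. DESeq2, DESeq2 without KO compressed 2 and log2(FPKM + 1) called 1, UAP1L1, and log2(FPKM + 1) without a filter called 2, UAP1L1 and GGNBP1. At an unadjusted p under 0.05 the KO count of 828 was 538 with KO libraries alone and 1248 with voom, and 203 to 1636 leaving out 1 library. For the interaction, 0 were called in edgeR, 370 by DESeq2 without KO compressed 2 (2421 at an unadjusted p under 0.05), 1054 by voom (3680) and 1 by log2(FPKM + 1) without a filter. Leaving out 1 library gave 0 to 1 calls (an unnamed locus, without WT control 1) and 249 to 2272 at an unadjusted p under 0.05.

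The median of immediate early genes was -0.9 to -0.41 leaving out 1 library. Members at an unadjusted p under 0.05 then numbered 6 to 15 in immediate early, 3 to 11 in ERK feedback, 1 to 5 in YAP, 0 to 12 in interferon-stimulated, 2 to 11 in mitochondrial and 2 to 37 in ribosomal protein genes. Scaling by library size alone gave 3 interferon-stimulated and 4 mitochondrial members, and KO libraries alone without KO compressed 2 gave 3 interferon-stimulated members. LMNB1, near 0, ranged over -0.1 to 0.09 and was 0.09 without KO compressed 1, 0.09 without KO control 1 and 0.01 without WT compressed 1. Of 3299 values of 132 single genes followed in this way, 3 reversed, those of LMNB1. Some genes named above were not among them, such as FOSB, whose sign changed without KO compressed 2. The causes were not tested.

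The deviations of same-numbered libraries had correlations of -0.202 and -0.154 in KO and -0.164, 0.274 and -0.005 in WT cells. WT libraries of unlike number had correlations between -0.328 and 0.273. With 2 KO controls, their deviations mirror each other. These values cannot decide whether same-numbered libraries shared a culture or day. With the replicate block, 508 genes in KO cells and 424 for the interaction were at an unadjusted p under 0.05 with 0 called, and 3 mitochondrial and 12 ribosomal protein members stood at that p.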

Other observations

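Mitotic and interferon-stimulated genes held members called for a difference between genotypes in voom with sample weights and in DESeq2 without KO compressed 2, and cilium genes in voom but not in DESeq2. edgeR called 0 genes with all libraries and 0 without KO compressed 2, with 650 and 2272 at an unadjusted p under 0.05. With voom, 17 of 43 mitotic genes had a more negative compression effect in KO than in WT cells at an adjusted p under 0.05, and 1 a more positive one, beside 693 and 361 of 13560 genes. DESeq2 without KO compressed 2 called 9 of 43 more negative and 0 more positive, beside 182 and 188 of 13500 genes. DLGAP5, a spindle protein, was at 124, 193 and 102 CPM in KO compressed against 108 and 95.9 CPM in KO control libraries, and at 176, 144 and 201 CPM in WT compressed against 115, 83.0 and 95.6 CPM in WT control libraries. KO compressed 2 alone of the KO libraries reached the WT compressed range. The mitotic list medians were -0.041, 0.395 and -0.2 log2 units in KO compressed 1 to 3. In WT compressed 1 to 3 they were 0.438, 0.399 and 0.542, each from the control mean of its genotype. Of 33 interferon-stimulated genes, voom called 13 and DESeq2 without KO compressed 2 called 4 with a more negative effect in KO cells, and 0 with a more positive one. The medians of that list were 0.233, 1.04 and 0.271 in KO compressed 1 to 3, and 1.22, 0.917 and 0.679 in WT compressed 1 to 3. Of 43 cilium genes, voom called 7 more negative and DESeq2 without KO compressed 2 called 0. Both alternatives left out KO compressed 2 or gave it the lowest weight, and the part of that library in these calls was not tested.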
